A study of Drosophila melanogaster with 4 samples.

Results

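Arm 3L is the left arm of chromosome 3 of Drosophila melanogaster, and its stretches enriched for acetylation of histone H4 at lysine 8 (H4K8ac) are described here, apart from those at its proximal end. Members were all enriched stretches, called clusters, that lay on 3L and ended at or before base 22543557, which leaves out the 2 Mb nearest the centromere. The series-wide list held 2031 such clusters of 9912 in all, replicate 1 held 1314 of 5692 and replicate 2 held 1267 of 5482. The rule used position alone. The last cluster inside the limit, at 3L:22531964-22533444, was 1481 bp long with a score of 0.446, and the first one outside, at 3L:22543230-22545022, was 1793 bp long with a score of 0.488. In the series-wide list, 47 clusters of 3L were left out by this limit. All coordinates are those of FlyBase release 5.

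The lists came from ChIP-seq, in which chromatin fragments pulled down with an antibody are sequenced. The animals were larvae of the wild-type Oregon-R strain in the third instar, with no transgene or treatment named, and the antibody was a rabbit polyclonal against H4K8ac. There were 4 libraries, 2 of H4K8ac ChIP and 2 of input DNA, and a cluster list was analysed for each ChIP library and for the series as a whole. Whether the replicates were separate collections of animals is not stated, and the spread between them may be no more than technical. No tissue is named either, so a mark present in few cells and a weak mark in many cells cannot be told apart in these lists. The lists hold no read counts, so the depth behind a cluster is unknown.

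As background, acetylation removes the positive charge of a lysine in the histone tail, loosens the hold of the tail on DNA, and offers a docking site for proteins with a bromodomain. H4K8ac is laid down by histone acetyltransferases, taken off by deacetylases, and is known chiefly from promoters and bodies of active genes in euchromatin. The chromosome arms of the fly are gene-rich along most of their length and end in heterochromatin near the centromere, and base 1 of 3L is at its distal tip, by the telomere.

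Under 20% of the arm was in H4K8ac clusters in each replicate, and more in the series-wide list. Replicate 1 covered 4.35 Mb, or 19.3%, and replicate 2 covered 4.09 Mb, or 18.1%, which gave a mean of 18.7% ± 0.82 (SD, n = 2). The series-wide list covered 7.89 Mb, or 35.0%, which was 1.87 times the mean of the replicates. The larger area came both with more clusters, at 90.1 per Mb against 58.3 and 56.2, and with longer ones, at a mean of 3885 bp against 3312 and 3229 bp.

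The mark was laid out in short clusters with a long tail of broad ones. Median lengths were 2011 bp (replicate 1), 2026 bp (replicate 2) and 1829 bp (series-wide), and the shortest series-wide clusters were 1001 bp against 1301 bp in each replicate. The longest 25% of clusters began at 3252, 3336 and 3510 bp in the same order. In replicate 1, 55 clusters (4.19%) were at least 10 kb long, and they held 24.3% of its cluster bases. In replicate 2, 45 clusters (3.55%) reached 10 kb and held 21.3% of the bases. In the series-wide list 145 clusters (7.14%) reached that length, and they held 40.6% of the bases. Longer clusters had higher values of the authors' score, whose scale is not given, and rank correlations (Spearman) over clusters were 0.65 and 0.61 for replicates 1 and 2 and 0.47 series-wide. Length and score of one cluster come from the same reads, so these correlations are descriptions.

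Clusters stood close together, with wide empty stretches between groups of them. The median distance from one cluster to the next was 2289 bp (replicate 1), 2512 bp (replicate 2) and 1721 bp (series-wide). The mean gaps were 13757, 14504 and 7188 bp, several times the medians in all 3 lists. Gaps under 1 kb made up 30.0%, 31.0% and 37.4% of all gaps. At the other end, replicate 1 had 33 gaps of at least 100 kb, which took up 27.4% of the stretch. In replicate 2, 37 gaps took up 31.2%, and in the series-wide list 15 gaps took up 11.1%. A long cluster tended to have a near neighbour and a long neighbour. The rank correlation of length with the gap to the next cluster was −0.27 for each replicate and −0.26 series-wide. Between the lengths of adjacent clusters they were 0.22, 0.21 and 0.26.

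**Figure D1:**
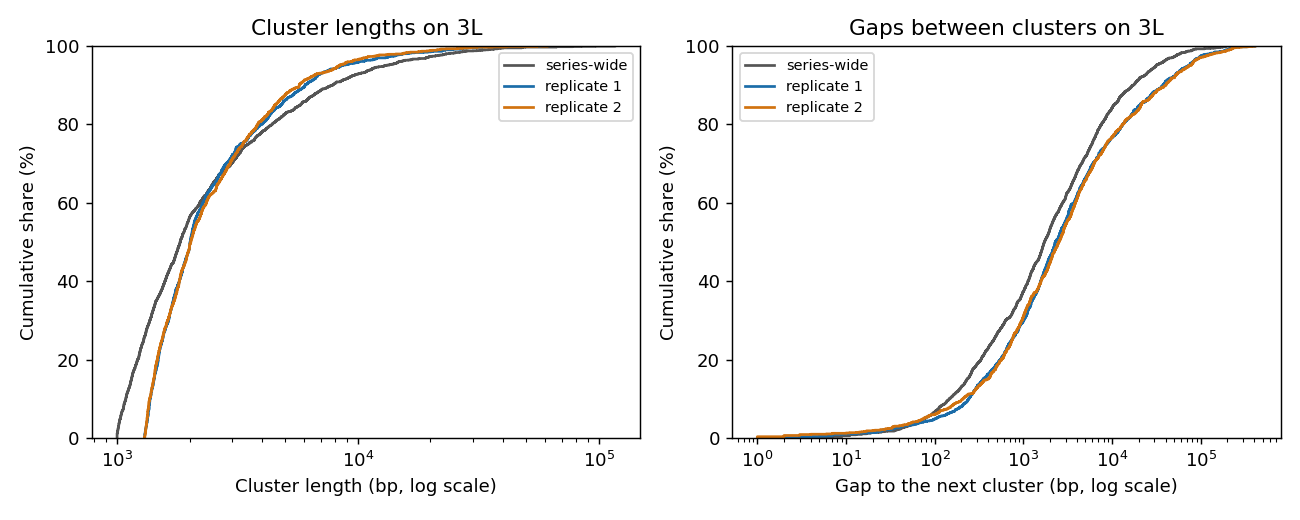
Cumulative share of cluster lengths (left, bp, log scale) and of gaps between adjacent clusters (right, bp, log scale) on 3L for replicate 1, replicate 2 and the series-wide list, with gaps of 0 bp drawn at 1 bp. The replicate curves lie nearly on each other with medians of 2011 and 2026 bp, while the series-wide curve starts at shorter lengths and reaches longer ones, and its gaps are shorter.

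When clusters less than 2 kb apart were joined into runs, the series-wide list formed 946 runs. A single cluster made up 515 of them (54.4%), and 244 runs of at least 3 clusters held 56.2% of all clusters. The replicates formed 707 and 701 runs, of which 61.7% and 62.9% were single clusters. The run with the widest span, which was also the one with the most clusters, lay at 3L:13042174-13288186. It joined 30 series-wide clusters over 246.0 kb, and clusters covered 91.4% of it in that list, 56.0% in replicate 1 and 55.9% in replicate 2. The next 4 runs by span were 136.6 to 190.2 kb long and held 6 to 13 clusters each. The widest run was thus built of many clusters, whereas the next, at 3L:11263640-11453826, was 98.5% covered by only 6 clusters.

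Along the arm, coverage alternated between dense and sparse stretches along its whole length. In the 90 full windows of 250 kb, the series-wide share ran from 1.39% to 89.0%, with quartiles at 20.4%, 31.4% and 48.3%. Neighbouring windows differed by a median of 18.1 percentage points, and 15 of the 89 steps were of 40 points or more. The widest step was at 13 Mb, from 9.31% to 78.9%. Spearman correlations between one window and the next were 0.07 in the series-wide list, 0.04 in replicate 1 and 0.10 in replicate 2. At 100 kb they were 0.37, 0.33 and 0.34, and between windows of 100 kb one window apart the series-wide value was 0.05. Coverage of a window thus said little about that of its neighbour at 250 kb and somewhat more at 100 kb. Large parts of the arm differed little from each other. In 4 equal parts of the stretch from the tip inwards, the share was 37.6%, 34.7%, 34.8% and 32.96% in the series-wide list. In replicate 1 it was 21.1%, 19.6%, 19.5% and 17.1%, and in replicate 2 it was 20.1%, 18.2%, 18.0% and 16.3%. In all 3 lists the distal part was the most covered and the proximal part the least. The distal part takes in the first 1.5 Mb, which were covered over 57.6% series-wide, 37.0% in replicate 1 and 36.7% in replicate 2. Its share without them was not computed, so the 4 values cannot be read as a slope along the arm.

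**Figure D2:**
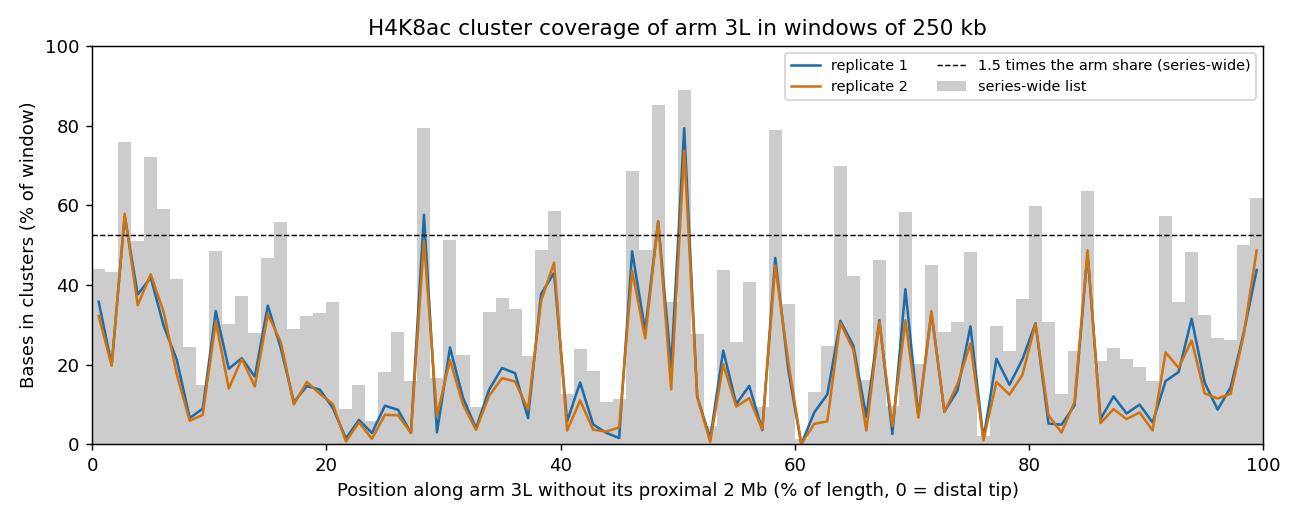
Share of bases in H4K8ac clusters (%) in 90 windows of 250 kb along 3L, from the distal tip (0) to the limit 2 Mb from the proximal end of the arm sequence (100% of the length), with bars for the series-wide list, lines for each replicate and a dashed line at 1.5 times the series-wide arm share. Peaks stand near the tip and at intervals along the arm, with the highest near the middle, where the series-wide share reaches 89.0%.

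The replicates drew the same profile. Across the 90 windows the Spearman correlation between them was 0.98, and they differed by 2.19 percentage points on average and by 7.82 at most. Replicate 1 was higher in 64 windows and equal in 1, a window in which both were at 0. Of the 5 most covered windows of each replicate, 4 were common to both. Windows of one arm and one genome are not independent, and no p-value is attached.

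**Figure D3:**
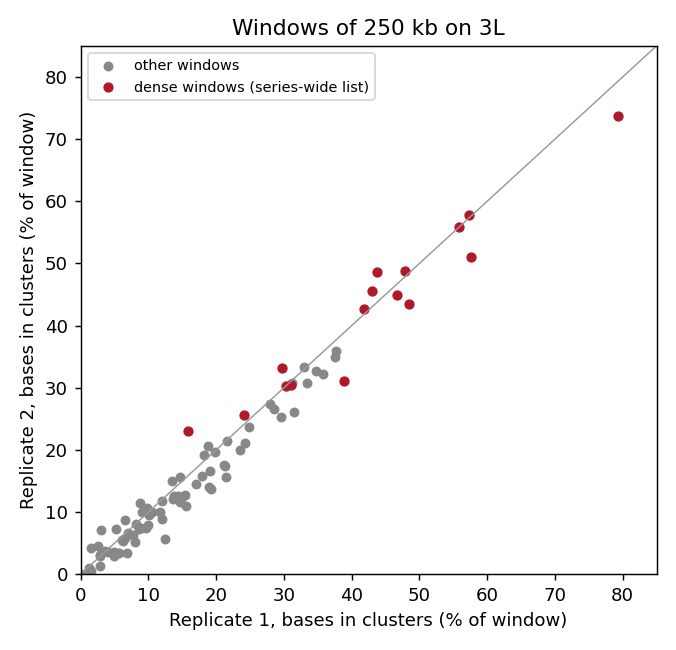
Share of bases in clusters (% of a 250 kb window) in replicate 1 (horizontal) and replicate 2 (vertical) for 90 windows of 3L, with the 16 windows that were dense in the series-wide list in red and the line of equality in grey. Windows lie close to the line, and the largest difference between replicates was 7.82 percentage points.

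Dense windows were defined from the series-wide list as those covered at 1.5 times the arm share or more, so their coverage in that list is a description. There were 16, or 17.8% of the windows, and they held 34.7% of the series-wide cluster bases in windows. They formed 15 blocks, of which 14 were single windows. Their series-wide shares were 55.9% to 89.0%. In replicate 1 the dense windows were covered over 15.9% to 79.3% with a median of 43.4%, against 0 to 37.7% with a median of 12.0% in the other 74 windows. In replicate 2 they were covered over 23.0% to 73.7% with a median of 44.2%, against 0 to 36.0% with a median of 10.8%. The dense and other windows thus overlapped in each replicate. Among the dense windows, the one at 20.5 to 20.75 Mb was the lowest in both replicates, at 15.9% and 23.0%. That window held 54 series-wide clusters in whole or part, the most of any block made of 1 window, and the longest of them was 14551 bp.

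In the series-wide list, density followed cluster length more closely than cluster number, and this was not computed over windows of the replicate lists. The dense windows held a median of 26.5 series-wide clusters, with a range of 13 to 54, and the other windows a median of 22, with a range of 3 to 40. The mean cluster length in a window had a median of 6908 bp in dense windows and 2860 bp in the others. Across the 90 windows the Spearman correlation of the share with the mean length was 0.81, and with the number of clusters it was 0.58. The share is the product of number and length, so both are positive by construction in part. Median scores differed little, with a median of 0.444 over dense windows and 0.412 over the others.

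The distal tip was more covered than the arm as a whole, and 3 of its 6 windows of 250 kb were dense. The first 1.5 Mb were covered over 37.0% in replicate 1, 36.7% in replicate 2 and 57.6% series-wide. This stretch makes up 6.65% of the length described and held 12.8%, 13.5% and 10.9% of its cluster bases. Outside the tip and the mid-arm region described next, the share was 16.3%, 15.2% and 31.4%. The limits of both regions were chosen from the profile after its values were seen. The tip was not evenly covered. In windows of 100 kb the series-wide share ran from 25.2% to 95.6%, with low windows at 0.2 to 0.4 Mb (25.2% and 25.9%) and at 0.9 to 1 Mb (26.1%). The peak was at 0.7 to 0.8 Mb, where the share was 90.9% in replicate 1, 90.9% in replicate 2 and 95.6% series-wide. At that peak lay an adjacent pair of broad clusters ranking 2 and 3 by score on the arm in the series-wide list. The cluster at 3L:748964-826904 was 77.9 kb long with a score of 1.01, and the one at 3L:711992-748660 was 36.7 kb long with a score of 1.00. They were 303 bp apart. Replicate 1 covered 99.2% and 99.8% of them, and replicate 2 covered 96.8% and 98.5%.

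The mid-arm region, from 10.25 to 11.5 Mb, held the 2 most covered windows of the arm in the series-wide list. It was covered over 46.3% in replicate 1, 42.7% in replicate 2 and 65.5% series-wide. It makes up 5.54% of the length and held 13.3%, 13.0% and 10.4% of the cluster bases. It contained 3 separate blocks, at 10.25 to 10.5 Mb, 10.75 to 11 Mb and 11.25 to 11.5 Mb. Their shares in replicate 1 were 48.4%, 55.9% and 79.3%. In replicate 2 they were 43.6%, 55.9% and 73.7%. In the series-wide list they were 68.6%, 85.3% and 89.0%. The last was the most covered window of the arm in all 3 lists. Between the blocks, windows of 100 kb fell to 26.0% at 11.1 to 11.2 Mb, where replicate 1 covered 6.01% and replicate 2 covered 4.33%. The most covered window of 100 kb on the arm was at 11.3 to 11.4 Mb, at 96.2% in replicate 1, 97.0% in replicate 2 and 98.7% series-wide.

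The lists differed in how these dense regions were built. In the series-wide list the mid-arm region held 95.2 clusters per Mb, close to 88.5 in the rest of the arm, while the mean cluster was 6873 bp long against 3543 bp. In replicate 1 the number was 102.4 per Mb against 53.1 and the mean length 4519 bp against 3062 bp. In replicate 2 the number was 100 per Mb against 50.6 and the mean length 4271 bp against 3001 bp. The tip showed the same split, with 106.7 clusters per Mb in the series-wide list and 90 and 93.3 in the replicates. Mean lengths at the tip were 5397 bp in the series-wide list, 4113 bp in replicate 1 and 3936 bp in replicate 2. The replicates thus had both more and longer clusters there, whereas the series-wide list had chiefly longer ones. On the whole arm, 254 series-wide clusters each held several replicate 1 clusters and 245 held several replicate 2 clusters.

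Of the other dense blocks, the window at 6.25 to 6.5 Mb was among the 3 most covered of the arm in the series-wide list. Its share was 57.6% in replicate 1, 51.0% in replicate 2 and 79.4% series-wide. The windows on its sides, at 15.8% and 16.5% in the series-wide list, were among the sparser ones. The block at 13 to 13.25 Mb, which holds most of the run of 30 clusters, was covered over 46.8%, 44.9% and 78.9% in the same order. The block at 22.25 to 22.5 Mb, at the proximal end of the stretch, was covered over 43.8%, 48.7% and 61.9%. The block at 0.5 to 0.75 Mb was covered over 57.3%, 57.9% and 76.0%, and that at 1 to 1.5 Mb over 35.8%, 37.9% and 65.6%. Blocks at 8.75 to 9 Mb and 19 to 19.25 Mb had shares of 43.0% and 47.8% in replicate 1, 45.6% and 48.7% in replicate 2, and 58.5% and 63.6% in the series-wide list. The remaining blocks began at 3.5, 14.25, 15.5 and 18 Mb, with series-wide shares of 55.9%, 69.7%, 58.4% and 59.7%. Their replicate shares lay between 24.1% and 38.9%.

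The 10 longest series-wide clusters of the arm were 47.9 to 117.1 kb long and together made up 8.91% of its cluster bases. The tip held 1 of them, the mid-arm region 2 and the rest of the arm 7. Replicate 1 covered 80.2% to 99.2% of each and replicate 2 covered 74.1% to 97.7%. The longest, at 3L:10733412-10850478, was split among 13 replicate 1 clusters and 16 replicate 2 clusters. The second, at 3L:11324992-11421540 (96.5 kb), was split among 5 and 7. Then came 3L:8797540-8881964 (84.4 kb), which held the longest cluster of each replicate. That cluster was 57.8 kb long in replicate 1, at 3L:8820599-8878376, and 61.3 kb in replicate 2, at 3L:8810042-8871383.

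Rank 4 in length was the cluster of 77.9 kb at the tip, and the 6 after it lay in several parts of the arm. Next in length were 3L:22130320-22197244 (66.9 kb) and 3L:8645340-8711788 (66.4 kb). They were followed by 3L:13222288-13271706 (49.4 kb) and 3L:6267572-6315864 (48.3 kb). The last 2 of the 10 lay side by side at the proximal end of the stretch, at 3L:22352690-22400910 (48.2 kb) and 3L:22401802-22449680 (47.9 kb), with 891 bp between them. Of these 6, the cluster at 3L:6267572-6315864 had the lowest score, 0.628, and was the most broken up, with 10 clusters in each replicate. Replicate 1 covered 80.3% of it and replicate 2 covered 74.1%.

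The highest score of the series-wide list on 3L, 1.29, belonged to a cluster of 1001 bp at 3L:19201094-19202094, the shortest length in that list. Neither replicate had a cluster there, but the shortest clusters of each replicate on 3L were 1301 bp long. Of the series-wide clusters of 1300 bp or less on 3L, 96.0% met neither replicate. The other 4 of the 5 highest scores were broad clusters of which each replicate covered 94.0% to 99.8%. They were the pair at the tip, the 96.5 kb cluster of the mid-arm region with a score of 0.893, and its neighbour at 3L:11284920-11323688 (38.8 kb) with a score of 0.877.

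A few windows were almost free of called clusters, and the lists do not show whether the mark itself was absent there. The least covered window of 250 kb was at 13.5 to 13.75 Mb, with no cluster in replicate 1, none in replicate 2 and 1.39% series-wide. Next were 17 to 17.25 Mb, at 1.29%, 0.97% and 2.08% in the same order, and 11.75 to 12 Mb, at 1.46%, 0.57% and 4.49%. In windows of 100 kb, 23 of 225 had no cluster in either replicate and 10 of them had none in the series-wide list either.

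The series-wide list left 15 stretches of 100 kb or more free of clusters, 6 in the first 11.3 Mb and 9 in the rest, and they took up 11.1% of its length. The longest was 298.0 kb, at 3L:17070893-17368917, and was the only one of at least 200 kb. The next 4 were 184.0 to 191.6 kb long. They lay at 3L:9891627-10083189, 3L:4940395-5131429, 3L:9144985-9329211 and 3L:5347995-5531987. The first free stretch from the tip began at 1.94 Mb, so the tip held none. Of the 15, 13 lay whole inside a stretch of at least 100 kb with no cluster in either replicate. The stretch at 3L:9144985-9329211 was touched by 1 cluster of each replicate at its proximal edge.

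The replicates together left 29 stretches of at least 100 kb, and these took up 23.3% of the length. The longest was 411.2 kb, at 3L:13495253-13906411. It began 207.1 kb after the end of the run of 30 series-wide clusters. The second, of 337.4 kb at 3L:9883630-10221028, ended 29.0 kb before the mid-arm region, and one of 215.9 kb, at 3L:11781907-11997821, began 281.9 kb after it. The mid-arm region thus lay between long stretches without a replicate cluster. The other two of the 5 longest were 3L:17041689-17373396 (331.7 kb) and 3L:4898648-5162982 (264.3 kb). The series-wide list had at least 1 cluster in each of the 29, 190 in all, and covered a median of 4.91% of a stretch, with a range of 0.51% to 15.2%.

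Isolated clusters were few and short. In the series-wide list 33 clusters (1.62%) had no neighbour within 20 kb on either side, with a median length of 1199 bp. Both replicates met 2 of them, and neither met 27. Over the whole arm, both met 27.2% of series-wide clusters and neither met 48.4%. The median length of the isolated clusters was below the 1301 bp of the shortest replicate clusters. Of all series-wide clusters of 1300 bp or less on the arm, 96.0% met neither replicate. The counts thus cannot be read as a property of isolation apart from length. The same counts over all sequences were not computed.

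Calls of the replicates on 3L recurred about as often as in the genome as a whole. On the arm, 927 of 1314 replicate 1 clusters (70.5%) shared at least 1 base with replicate 2, where the share over all sequences was 68.6%. In the other direction 958 of 1267 replicate 2 clusters (75.6%) were shared, against 73.4% over all sequences. These shares are near the values for all sequences, which include 3L. The arm had 3.05 Mb covered by both lists, which was 70.1% of what replicate 1 covered and 74.5% of what replicate 2 covered. Every cluster of at least 10 kb was shared, 55 from replicate 1 and 45 from replicate 2. The shared portion of such clusters over all sequences was not computed. The longest clusters that were not shared were 4181 bp in replicate 1, at 3L:11481901-11486081, and 5024 bp in replicate 2, at 3L:10240948-10245971. Both were in or at the edge of the mid-arm region.

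Within 3L, longer clusters recurred more often. Of clusters of 1301 to 1999 bp, 52.1% of replicate 1 and 57.9% of replicate 2 were shared. The shares were 80.4% and 88.3% at 2000 to 3999 bp and 99.5% and 99.5% at 4000 to 9999 bp. In the shortest class, replicate 1 clusters in dense windows were shared in 61.5% of cases and those in other windows in 48.6%, while in replicate 2 the values were 59.1% and 57.3%. Sharing needed only 1 common base, so a longer cluster had more bases with which to meet another. A dense window likewise offers more cluster bases to meet. The part of either in the shares was not tested. Shares by length over all sequences were not computed, so these values cannot be read as particular to 3L.

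Borders were less exact than the calls. Among the 512 pairs in which 1 cluster of replicate 1 met just 1 of replicate 2 and the reverse, the distal borders differed by a median of 316 bp and the proximal ones by 336 bp. Both borders were within 500 bp in 211 pairs (41.2%) and within 100 bp in 41 (8.01%). Borders differed more over the 804 pairs of largest mutual overlap, which also take in clusters that met several. The medians there were 478 bp (distal) and 498.5 bp (proximal). Both borders were within 500 bp in 29.7% of those pairs and within 100 bp in 5.35%. The clusters of the replicates were about 2 kb long in the median, so these differences are a sizeable part of a typical cluster. Over the 512 pairs the replicates ranked clusters with a Spearman correlation of 0.57 by score and 0.53 by length. Where a series-wide cluster held exactly 1 cluster of each replicate (254 cases), it reached beyond the replicate 1 cluster by a median of 286.5 bp on the distal side and 328.5 bp on the proximal side. For replicate 2 the reach was 339.5 and 399.5 bp.

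Of the series-wide clusters on 3L, 552 (27.2%) met clusters of both replicates, against 25.2% over all sequences. Replicate 1 alone met 282 (13.9%), replicate 2 alone met 215 (10.6%), and 982 (48.4%) met neither. Shares over all sequences were not computed for these, so they cannot be read as particular to 3L. Clusters met by both replicates were long, at a median of 6048 bp, and held 66.0% of the bases. Those met by neither had a median of 1291 bp and held 18.4%. Length separated the classes, although a longer cluster also had more bases with which to meet a replicate cluster. Of the 145 clusters of 10 kb or more, 144 met both replicates, and of the 619 clusters of 1301 to 1999 bp, 24 (3.88%) did. Of the 524 clusters of 1300 bp or less, which were shorter than any replicate cluster, none met both and 503 (96.0%) met neither. The clusters met by neither stood farther from those met by both than the clusters of either replicate alone did. Their median distance to the nearest cluster met by both was 13.2 kb, and 401 (40.8%) were 20 kb or more from one. For clusters met by replicate 1 alone and by replicate 2 alone the median distances were 3975 and 5671 bp.

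**Figure D4:**
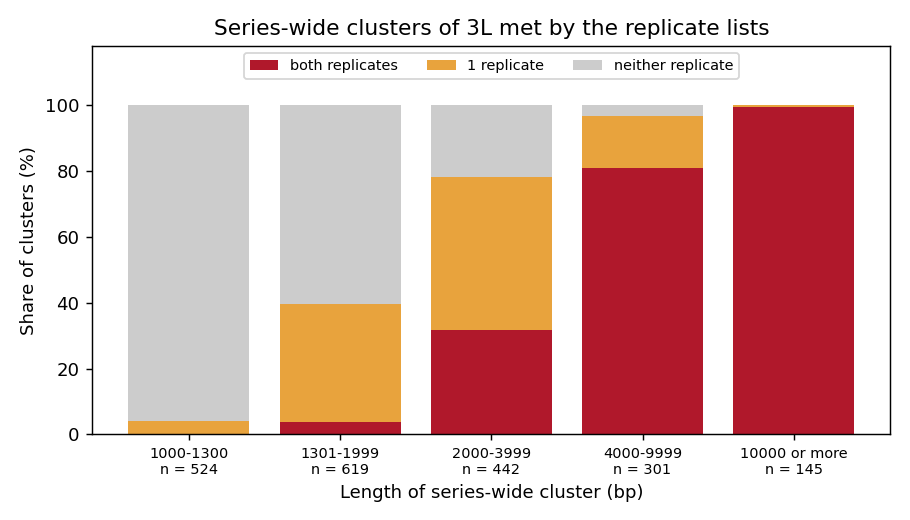
Share (%) of series-wide clusters on 3L that met clusters of both replicates, of 1 replicate or of neither, by cluster length in bp, with the number of clusters under each bar. The share met by both rises from 0 in clusters of 1300 bp or less to 99.3% in those of 10000 bp or more.

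The series-wide share exceeded that of the replicates by a larger ratio in the other windows than in the dense ones. The ratio of the series-wide share to the mean of the replicates had a median of 1.60 in the dense windows, with a range of 1.16 to 2.95. In the other windows it had a median of 2.26, with a range of 1.29 to 8.24. A share cannot exceed the whole window, so windows well covered in the replicates had less room for a high ratio. The replicates covered medians of 43.4% and 44.2% in the dense windows, against 12.0% and 10.8% in the others. The windows were also split on the series-wide share itself. The ratios thus cannot show where the lists differed more, and differences in percentage points were not compared. By bases, 38.6% of the series-wide clusters lay in both replicate lists, 29.1% in 1 and 32.3% in neither. Nearly all replicate clusters met a series-wide one, and the exceptions were 5 in replicate 1 and 4 in replicate 2.

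Among the major arms, each without its proximal 2 Mb, 3L was the most covered in all 3 lists, with 2R close behind. Replicate means were 18.7% ± 0.82 on 3L, 18.4% ± 1.01 on 2R, 14.0% ± 0.87 on 2L, 13.7% ± 0.81 on 3R and 10.5% ± 0.68 on the X (SD, n = 2 for each). Replicate 1 was the higher one on each arm, so arms were compared within a replicate. The excess of 3L over 2R was 0.23 points in replicate 1 and 0.50 in replicate 2, with a mean of 0.37 ± 0.19 (SD, n = 2). Over 2L it was 4.71 and 4.79 points, over 3R 4.98 and 4.98, and over the X 8.30 and 8.11. Each excess was positive in both replicates. With 2 replicates an exact two-sided permutation test cannot give a p-value under 0.5, so none of these differences was tested.

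Long clusters took the largest share of cluster bases on 3L in each list. Clusters of 10 kb or more held 24.3% of the bases on 3L in replicate 1, against 11.1% to 22.6% on the other 4 arms. In replicate 2 they held 21.3%, against 12.3% to 20.0%, and in the series-wide list 40.6%, against 22.4% to 36.6%. In unevenness along the arm 3L was not extreme. The coefficient of variation of 250 kb windows was 81.4% in replicate 1 and 84.6% in replicate 2, within the range of 67.1% to 82.9% and 67.4% to 86.0% of the other arms. The 9 most covered windows of 3L held 27.6% and 28.7% of the cluster bases.

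**Figure D5:**
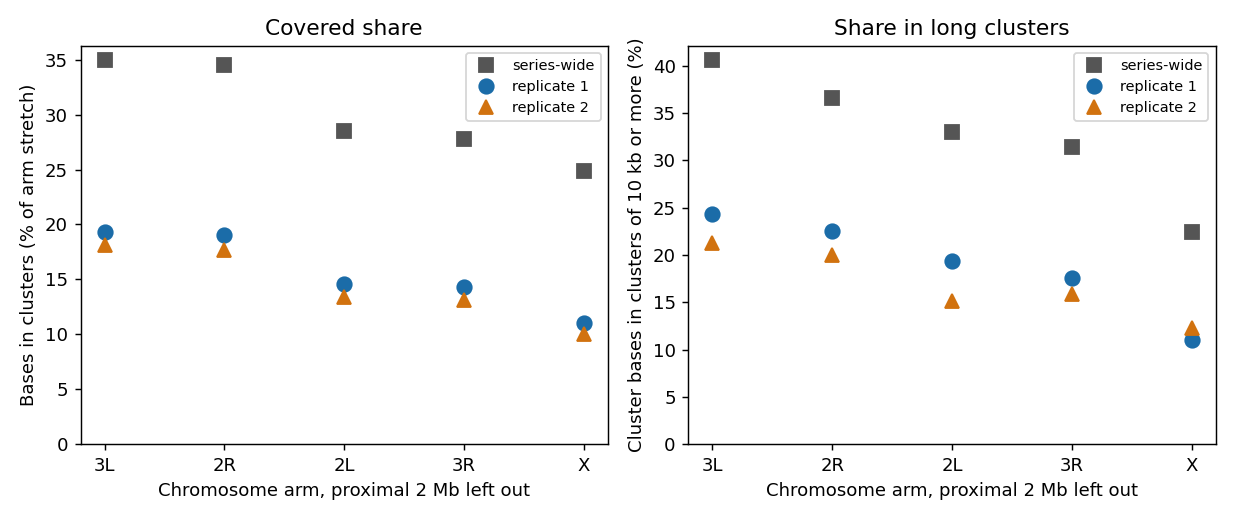
Share of bases in clusters (left, % of the arm without its proximal 2 Mb) and share of cluster bases in clusters of 10 kb or more (right, %) for the 5 major arms, as 1 point per list. In both panels 3L has the highest value in each list, and 2R is within 1 percentage point of it in the covered share.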

How the data were processed

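H4K8ac ChIP-seq lists of 2 ChIP replicates and of the whole series were used, and no file of the 2 input libraries was analysed here. The submitters' processing notes name Bowtie 0.12.7 as the aligner. The authors deposited each cluster with its arm, first and last base and a score. The calling of clusters, the use of the inputs and any pooling for the series-wide list were not given in the sources used here. Coordinates are FlyBase release 5, per the file headers, as are arm lengths. The gene table used here follows release 6, so no gene was named and no sequence was read from a position. Columns from samples of another series numbered 0. Depth is unknown, since the deposited lists hold no counts.

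Interval overlaps used scipy 1.17.1, pandas 2.3.3 and numpy 2.4.6 under Python 3.11.15, and the functions were tested on simulated lists with known answers. Clusters were shared when they had at least 1 base in common. Regions named are the 10 longest and 5 highest-scoring series-wide clusters, every dense block, the 3 most and 3 least covered windows of 250 kb, the most covered of 100 kb, the 5 longest free stretches of each kind, the longest cluster of each replicate and the longest run. Any other region was named after its values were seen. Members, rules and alternatives were chosen with earlier results of these data known. The design holds 1 ChIP group, so no test between groups was made. Median-score thresholds use the median of each whole list. Alternatives changed the overlap rule, window size, score and length limits, list and region.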

Additional observations from a re-analysis of the deposited data

How the results depend on the processing

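Of 33 alternative values for 9 results on 3L, 11 stayed within the tolerance set for them and 22 moved past it. The tolerance was 1 SD of the replicates or a 95% binomial interval where one could be had, 0.05 for a correlation and a factor of 1.5 for counts and for the span of dense windows. For shared clusters that SD came from the 2 directions of 1 comparison, so it is no spread between replicates. For median length and gap the SD was that of the replicate medians, while the main value was series-wide. The alternatives with windows of 250 kb shifted by 0.5 of their width were chosen after seeing the data. The covered share was 18.7% for the replicates. It was 17.4% with the proximal 2 Mb included, 12.9% for clusters scoring no less than the list median, 35.0% in the series-wide list, and 18.1% to 19.3% with 1 replicate left out. Leaving out 1 of 2 replicates always moves their mean by less than 1 SD. Those 2 values were thus bound to stay within the tolerance and say nothing about robustness. Under the rule of 50% of both clusters, the shared portion was 44.6% of replicate 1 and 46.3% of replicate 2, and for the higher-scoring clusters it was 66.3% and 69.0%. Series-wide clusters met by both replicates made up 27.2%. The value was 17.8% when 50% of a cluster had to be covered by each, and 36.6% among the 1507 clusters at least as long as the shortest replicate cluster. The correlation of the replicates over windows stayed between 0.96 and 0.98 for the window sizes and the shift.

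Dense windows spanned 4 Mb, against 1.5 Mb at 2 times the arm share, 5.70 Mb with 100 kb windows, 5.25 Mb with shifted windows, 5.75 Mb in replicate 1 and 5.50 Mb in replicate 2. Of the 23 and 22 dense windows of the replicates, 14 and 14 were dense in the series-wide list. Series-wide cluster-free stretches numbered 15 at a minimum of 100 kb, 57 at 50 kb and 1 at 200 kb, 32 for the higher-scoring clusters, and 29 where both replicates were free. The median length of 1829 bp became 2151 bp with clusters closer than 1000 bp merged, 2381 bp without the shorter clusters, and 2011 and 2026 bp in the replicates. The median gap of 1721 bp became 4222 bp, 2069 bp, 2289 bp and 2511.5 bp in the same order. By construction, a stricter overlap rule, a higher minimum for dense windows or free stretches, and leaving out clusters from the covered share can only lower the value. Also by construction, leaving out the shorter clusters can only raise the median length. None of those left out met both replicates, so the share met by both could only rise as well. Merging close clusters removes the shortest gaps and can only raise the median gap. A lower minimum for free stretches can only raise their number. For the remaining changes the cause was not tested. No paired analysis was possible because the input libraries numbered like the ChIP replicates had no list analysed here.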

Other observations

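The window in which the replicates differed most was at 15.5 to 15.75 Mb, with 38.9% in replicate 1 and 31.1% in replicate 2. At 20.5 to 20.75 Mb the order was the opposite, with 15.9% and 23.0%, and the series-wide share there was 57.4%. All start positions of series-wide clusters on 3L were even numbers, whereas 50.2% of those of replicate 1 and 47.8% of those of replicate 2 were odd. The short cluster with the highest score on the arm, at 3L:19201094-19202094, stood 351 bp and 3063 bp from its neighbours.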
